A study of Mus musculus with 17 samples.

Results

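A total of 905 chromatin regions that carried histone H3.3 over the start of a protein-coding gene in newborn mouse lens were covered over a length at least 2 times greater in lens fibers than in lens epithelium. The regions were selected on this length itself. H3.3 ChIP-seq islands of 4 libraries, which are stretches with more reads than the background, were joined into 38396 regions, an overlap of 1 bp being sufficient. Of these, 3839 on chromosomes 1 to 19 had an island in all 4 libraries, and 2010 of the 3839 contained the start base of a protein-coding gene in the GENCODE M21 annotation of mm10. The width ratio of a region was the mean island length of the fiber replicates divided by the mean island length of the epithelium replicates, and 905 of the 2010 regions (45.0%) reached a ratio of 2. The other 1105 gene-start regions are called regions below the ratio. Because the width values chose the 905 regions, every width given below is a description, without a test.

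The 4 libraries came from lenses of CD1 mice for which the labels list no treatment or mutation, at postnatal day 1 in the sample titles and day 0.5 in the protocol. Lenses were microdissected into the epithelium, the anterior cell layer that holds the dividing cells, and the fibers, the elongated cells that fill the lens. Each compartment had 2 biological replicates of 150 pooled lenses per sample according to the labels, and the study's methods state another number of lenses. Chromatin was precipitated with an antibody against H3.3. Pooling means that the value of a library is a mean over many animals, and that a larger share of cells with H3.3 at a position cannot be told apart from more H3.3 per cell.

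H3.3 is a variant of histone H3 that is placed in chromatin independently of DNA replication. The chaperone HIRA deposits it at promoters and over transcribed genes, where nucleosomes are lost and replaced, and DAXX with ATRX deposits it at repeats. In cells that have stopped dividing, such as lens fibers, H3.3 is the form of histone H3 that can still be added. Fibers make very large amounts of crystallins and of a membrane skeleton, and later lose their nuclei and other organelles.

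The promoters of 8 genes are shown as examples of starts in the widened regions. They differ in island coverage at the start, which was not used to pick them. They are the genes of the crystallin list and of the fiber membrane and skeleton list that start in a widened region with all 4 fiber-to-epithelium pairs at 2 or more, and whose RefSeq start lies within 30 bp of the GENCODE start, a choice made after values were seen. Each line gives the 250 bases before the start (RefSeq, GRCm38.p6), 5′ to 3′ along the gene. Capitals mark matches on either strand to the TATA box (TATAAA), the CCAAT box (CCAAT), the GC box (GGGCGG) and the core of the MAF element (TGCTGA).
Crybb2, chr5:113070118-113070367, minus strand: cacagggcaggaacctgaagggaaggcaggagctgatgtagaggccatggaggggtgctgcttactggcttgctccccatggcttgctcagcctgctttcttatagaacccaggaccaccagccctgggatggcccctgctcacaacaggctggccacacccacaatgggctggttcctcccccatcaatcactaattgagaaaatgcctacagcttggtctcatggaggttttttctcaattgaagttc
Crybb3, chr5:113081585-113081834, minus strand: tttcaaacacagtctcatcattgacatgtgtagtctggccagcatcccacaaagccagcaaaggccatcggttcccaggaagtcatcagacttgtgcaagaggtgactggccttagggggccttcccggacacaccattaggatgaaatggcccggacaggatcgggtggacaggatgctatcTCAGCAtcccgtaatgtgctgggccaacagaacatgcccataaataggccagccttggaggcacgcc
Cryba1, chr11:77725294-77725543, minus strand: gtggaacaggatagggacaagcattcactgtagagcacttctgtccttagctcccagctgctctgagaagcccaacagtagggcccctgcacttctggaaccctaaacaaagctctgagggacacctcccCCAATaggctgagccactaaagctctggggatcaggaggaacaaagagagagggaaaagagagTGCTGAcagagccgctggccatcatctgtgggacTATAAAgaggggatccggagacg
Mip, chr10:128225560-128225809, plus strand: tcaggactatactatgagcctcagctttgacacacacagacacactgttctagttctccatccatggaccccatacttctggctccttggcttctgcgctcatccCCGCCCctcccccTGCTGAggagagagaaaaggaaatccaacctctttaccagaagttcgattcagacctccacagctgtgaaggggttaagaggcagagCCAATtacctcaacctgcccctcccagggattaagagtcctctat
Prx, chr7:27499074-27499323, plus strand: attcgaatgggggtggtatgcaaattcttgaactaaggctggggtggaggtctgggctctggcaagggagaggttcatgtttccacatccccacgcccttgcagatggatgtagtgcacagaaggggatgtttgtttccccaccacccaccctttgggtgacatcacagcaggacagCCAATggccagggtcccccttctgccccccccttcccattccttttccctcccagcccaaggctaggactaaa
Sptb, chr12:76710548-76710797, minus strand: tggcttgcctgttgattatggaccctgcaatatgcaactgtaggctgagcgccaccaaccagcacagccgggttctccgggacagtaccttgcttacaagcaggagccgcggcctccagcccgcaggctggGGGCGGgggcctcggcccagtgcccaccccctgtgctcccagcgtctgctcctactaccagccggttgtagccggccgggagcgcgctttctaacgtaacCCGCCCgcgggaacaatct
Add1, chr5:34573414-34573663, plus strand: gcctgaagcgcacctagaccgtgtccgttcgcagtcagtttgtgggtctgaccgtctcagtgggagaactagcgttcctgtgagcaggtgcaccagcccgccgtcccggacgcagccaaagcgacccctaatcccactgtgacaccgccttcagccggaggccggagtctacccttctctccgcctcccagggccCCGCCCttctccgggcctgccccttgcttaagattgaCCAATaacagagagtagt
Sptan1, chr2:29965310-29965559, plus strand: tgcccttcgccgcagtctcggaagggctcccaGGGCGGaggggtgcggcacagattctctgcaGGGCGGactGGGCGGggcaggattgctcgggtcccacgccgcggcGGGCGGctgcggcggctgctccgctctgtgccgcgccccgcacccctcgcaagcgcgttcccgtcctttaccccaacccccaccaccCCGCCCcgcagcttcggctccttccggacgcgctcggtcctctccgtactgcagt

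The 8 sequences ran from CpG-free to CpG-rich. Crybb2 had 0 CG dinucleotides in 250 bases and a GC content of 54.8%, Prx had 2, Mip and Cryba1 each had 3, and Crybb3 had 6. Add1 with 17, Sptb with 18 and Sptan1 with 31 were the CG-rich starts, and Sptan1 had a GC content of 73.6% and 5 GC boxes. A TATA box was present in the window of Cryba1, and the MAF core occurred in those of Cryba1, Mip and Crybb3. The windows of Crybb2, Crybb3, Sptan1 and Add1 lay completely inside islands of all 4 libraries. The window of Prx lay inside islands of both fiber libraries and of neither epithelium library. Those of Mip and Sptb were covered in both fiber libraries and in 1 epithelium library each.

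In the 905 regions, the median island length was 4600 and 4200 bp in epithelium replicates 1 and 2, and 15800 and 14400 bp in fiber replicates 1 and 2. The lower quartile of each fiber library (9800 and 9200 bp) lay above the upper quartile of each epithelium library (7600 and 8000 bp). In the 1105 regions below the ratio, the medians were 6800 and 6400 bp in epithelium and 9400 and 8800 bp in fibers. The widened regions were therefore shorter than the others in epithelium and longer than the others in fibers. Their median width ratio was 2.82, with quartiles of 2.30 and 3.69 and a highest value of 12.9, and the medians of the 4 possible pairs (each fiber library over each epithelium library) ran from 2.79 to 3.19. A ratio of at least 3 was reached by 394 regions and a ratio of at least 5 by 83. The median gain, the fiber mean minus the epithelium mean, was 9600 bp, and the summed gain was 12.2 Mb. Merged region lengths ran from 4400 to 281400 bp with a median of 18200 bp.

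**Figure D1:**
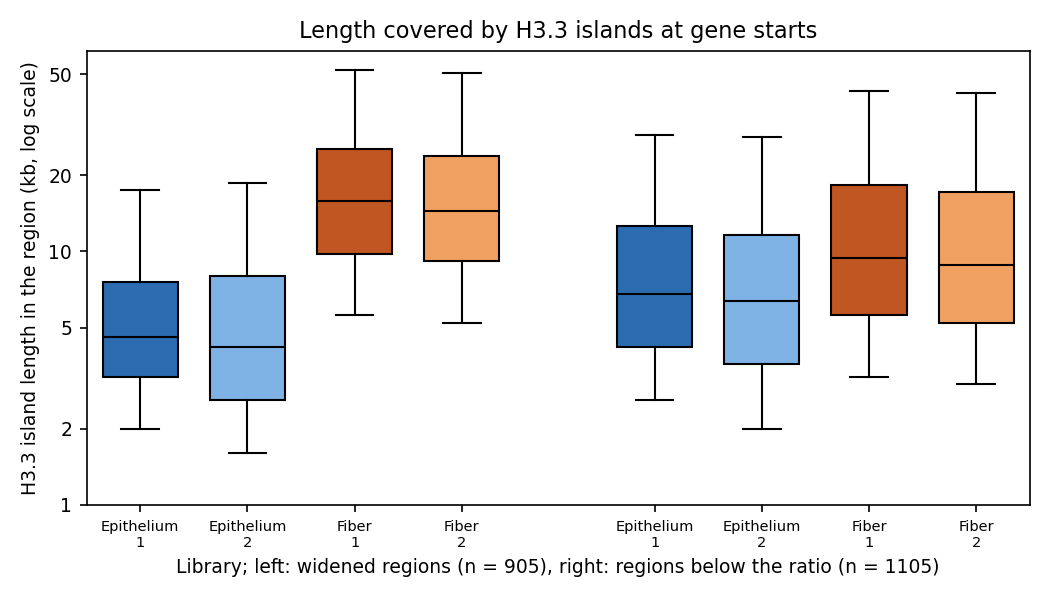
Length covered by H3.3 islands in each region (kb, log scale) for the 4 libraries, in the 905 widened regions on the left and the 1105 regions below the ratio on the right. Boxes give quartiles and medians and whiskers the 5th to 95th percentiles over regions. In the widened regions the fiber medians are 15800 and 14400 bp against 4600 and 4200 bp in epithelium.

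The share of regions that reached the ratio was close to the same at gene starts and elsewhere. Among the 1829 regions in all 4 libraries without a gene start, 802 (43.8%) had a ratio of at least 2, and over all 3839 regions the share was 44.5%. The median ratio was 1.88 at gene starts and 1.82 elsewhere. The fiber libraries also held 3.88 times as many bp in islands as the epithelium libraries genome-wide, and 3.77 times as many reads in islands. Sequencing depth is not known for any library, so that a genome-wide difference between compartments and a difference in depth cannot be told apart. When each library's island length was divided by its genome-wide total, 18 of the 2010 regions (0.896%) reached a ratio of 2.

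Agreement between replicates differed between the compartments. In the widened regions the wider of 2 epithelium replicates was a median of 1.53 times the narrower, against 1.15 times in fibers. Both fiber replicates were wider than both epithelium replicates in 888 of the 905 regions (98.1%), beside 76.8% of all gene-start regions. All 4 pairs reached a ratio of 2 in 513 regions (56.7%), beside 25.5% of all gene-start regions, a count that the rule itself favours. In these 513 regions the medians were 4800 and 4600 bp in epithelium and 19200 and 18600 bp in fibers.

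The limit of 2 cut through a continuous range. Exactly at 2 were 18 regions, 157 members lay below 2.2, and 185 regions below the limit had a ratio of at least 1.8. Just inside the limit, the island lengths at Map1lc3a were 4600, 1600, 7400 and 5000 bp in epithelium 1, epithelium 2, fiber 1 and fiber 2, and the pair ratios ran from 1.09 to 4.62. Fam69b had pair ratios from 1.03 to 7.67, and the region of Rsrp1 and Syf2 from 1.61 to 2.54. Just outside, at 1.99, were the regions of Ache and Ufsp1, of Poldip3 (pair ratios 1.88 to 2.10) and of Tas1r1, Nol9 and Plekhg5 (1.48 to 2.84).

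To see which lens genes the widened regions hold, lists of genes were counted, all of them chosen with earlier results of these data known. Of the 3122 gene symbols that started in the 2010 regions, 1377 (44.1%) started in a widened region, and this share is the background for each list. The counts leave out listed genes that started in none of these regions. Crystallins, the soluble proteins that give the lens its refractive index, had 8 of 9 symbols in widened regions. These were Cryab, Cryba1, Cryba4, Crybb1, Crybb2, Crybb3, Crygn and Crygs in 6 regions, and Cryaa lay below the ratio. The other 7 of the 16 listed crystallins started in none of the 2010 regions. Genes of the fiber membrane and skeleton had 11 of 14, and another 14 of the 28 listed started in none of the 2010 regions. Lens RNA-binding proteins had 3 of 4, lens transcription factors 6 of 12, FGF, BMP and kinase signalling 5 of 10, and glycolysis 4 of 9. Organelle removal and autophagy had 3 of 7, ribosomal proteins 17 of 45, the actin cytoskeleton 4 of 11, the cell cycle 1 of 7, and H3.3 with its chaperones 0 of 3.

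The coverage of crystallin genes in epithelium ran from none of the gene to all of it. At Crygs (γS-crystallin, chr16:22788001-22822800), islands covered 7400 and 3400 bp in epithelium 1 and 2 and 32400 and 32000 bp in fiber 1 and 2. None of the annotated gene lay in an epithelium island and 100% of it lay in an island of each fiber library, so that the epithelium islands of this region flanked the gene. At Crygn (γN-crystallin, chr5:24738001-24761600) the lengths were 2800 and 3200 bp in epithelium and 19000 and 23600 bp in fibers, a ratio of 7.10. Its start base was in an island in both fiber libraries and in neither epithelium library.

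Cryba1 (βA3/A1-crystallin, chr11:77712201-77739400) measured 3800, 8400, 26600 and 26400 bp in the order epithelium 1, epithelium 2, fiber 1, fiber 2. The replicates differed more in epithelium than in fibers. The region of Crybb2 and Crybb3 (chr5:113053601-113120400), which encode β-crystallins, had 21800 and 29600 bp in epithelium and 62400 and 65000 bp in fibers. Here Crybb3 was covered over its whole length in all 4 libraries, and Crybb2 rose from 51.6% and 33.0% of the gene in epithelium to 100% in both fiber libraries. Cryab, the small heat shock protein αB-crystallin, shares a region (chr9:50744801-50761000) with Hspb2 and had 6200, 6400, 16200 and 14600 bp. Cryaa, the αA-crystallin gene, also named after its values were seen, had 22600 and 19200 bp in epithelium and 28400 and 28200 bp in fibers, a ratio of 1.35, and was wide in every library.

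Among the genes of the fiber membrane and skeleton, 10 of the 11 had all pair ratios at 2 or more. Tmod1, tropomodulin 1, which caps the pointed ends of actin filaments, had 7200 and 1000 bp in epithelium and 33400 and 35400 bp in fibers. Its ratio of 8.39 was the highest of the list, the epithelium replicates lay far apart, and the pair ratios ran from 4.64 to 35.4. The region (chr4:46015401-46050800) also covers the end of Tdrd7, so that part of these lengths lies over that gene. Tmod1 itself was covered over 2.98% and 3.67% in epithelium and 54.9% and 61.6% in fibers. Add1, an adducin that joins spectrin to actin, had 3200, 1600, 18000 and 18000 bp. The α-spectrin gene Sptan1 had 26800 bp in each epithelium library and 80400 and 76200 bp in fibers, where 100% and 98.8% of its 65892 bp were covered. The β-spectrin gene Sptb had 17200 and 22000 bp in epithelium and 56800 and 55200 bp in fibers. Fibers above epithelium in all 4 pairs was a condition for naming these genes and not a result.

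Mip, the water channel aquaporin 0 of fiber membranes, lies with Gls2, Spryd4 and Timeless in a region (chr10:128190801-128247600) of 7800, 13800, 56800 and 48400 bp. Bfsp2, a protein of the beaded filament that is particular to the lens, had 11400 and 10400 bp in epithelium and 23400 and 23000 bp in fibers, a ratio of 2.13 close to the limit. Prx, periaxin, had 7600, 10000, 41200 and 42800 bp, and the intermediate filament gene Vim had 2800, 5400, 15800 and 17200 bp. The smallest region of the list was that of the water channel gene Aqp5, with 1600, 2000, 5800 and 6000 bp. The region of Tubb3 was widened with a lowest pair ratio of 1.39, and Grifin (1.92), Ezr (1.98) and Slc2a1 (1.10) lay below the ratio.

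Lens transcription factors were found on both sides of the limit. Sox1, which is required for fiber elongation and γ-crystallin expression, lay in one of the largest regions (chr8:12311201-12441400), with 38600 and 43600 bp in epithelium and 129200 bp in each fiber library. The Sox1 gene itself was covered over 0% and 16.6% in epithelium and 100% in fibers. Prox1, a homeodomain factor needed for fiber differentiation, had 11200, 22600, 77200 and 76600 bp and was covered over 21.1% and 27.7% of its length in epithelium against 98.5% and 100% in fibers. Etv5, an ETS factor that responds to FGF, had 3000 and 3200 bp in epithelium and 22600 and 30400 bp in fibers, a ratio of 8.55. The region of Sox2 had 2400, 12600, 29200 and 29200 bp, and epithelium replicate 1 lay far below replicate 2. The Sox2 gene itself was covered over 0% and 100% in epithelium and 90.5% and 48.4% in fibers. Its coverage was thus not higher in fibers than in epithelium replicate 2. The region with Hsf4, the heat shock factor of the lens, had 3000, 9000, 18600 and 20600 bp and also held Tradd, Fbxl8 and Nol3. Rxra had a ratio of 2.31 with a lowest pair ratio of 1.66. Named after their values were seen, Pax6 (1.26), Pitx3 (1.73), Hes1 (1.83), Mafg (1.86) and Mafk (1.52) lay below the ratio, and Pax6 was wide in every library, with 37200, 38800, 46400 and 49000 bp.

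**Figure D2:**
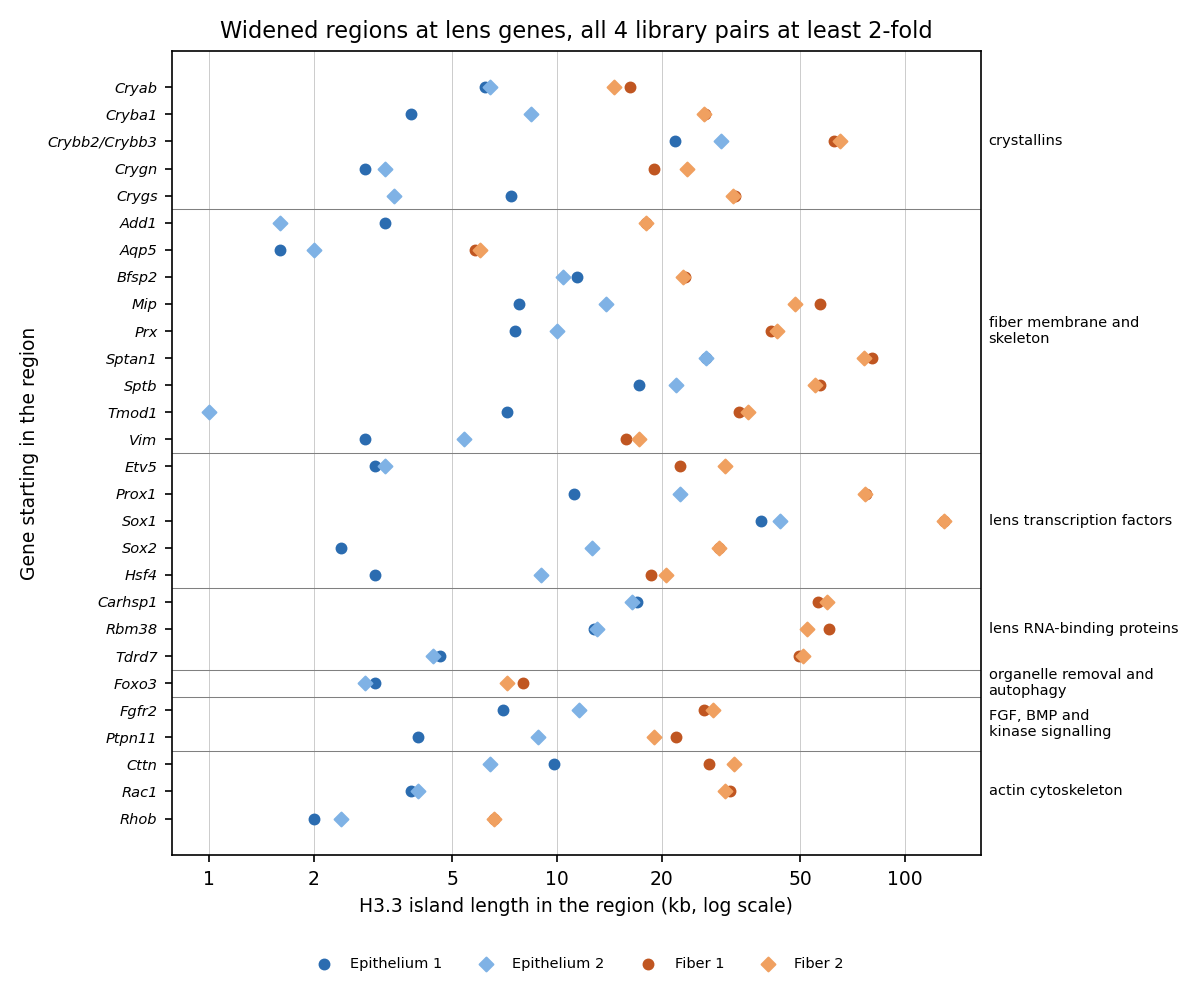
H3.3 island length (kb, log scale) in each of the 4 libraries for widened regions of lens gene lists with all 4 pair ratios at 2 or more (1 region of the fiber membrane and skeleton list is not reported here), 1 row per region, named by the listed gene that starts in it. Circles are replicate 1 and diamonds replicate 2. In every row both fiber points lie to the right of both epithelium points, which the choice of rows requires.

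The genes of RNA binding, signalling and the actin cytoskeleton with all pair ratios at 2 or more had width ratios from 2.92 at Fgfr2 to 11.2 at Tdrd7. Tdrd7, a Tudor domain protein of RNA granules whose loss causes cataract, had 4600 and 4400 bp in epithelium and 49600 and 50800 bp in fibers, a ratio of 11.2. Counting all islands of a library, 11.0% and 7.78% of the gene lay in islands in epithelium and 97.4% and 98.3% in fibers, partly in the adjoining region of Tmod1. Carhsp1, a cold shock domain protein, had 17000, 16400, 56200 and 59800 bp in a region with Pmm2, Tmem186 and Gm5767, and Rbm38 had 12800, 13000, 60600 and 52400 bp in a region with Rae1. Both had replicates that differed little beside the difference between compartments. Ptpn11, the phosphatase Shp2 of FGF receptor signalling, had 4000, 8800, 22000 and 19000 bp. Fgfr2 was counted through an annotated start close to that of Ctbp2 that makes the gene 2960900 bp long, so that the gene's coverage says little about the region. The region of Fgfr2 and Ctbp2 had 7000, 11600, 26400 and 28000 bp. Rac1, a GTPase that drives actin polymerization, had 3800, 4000, 31400 and 30400 bp, the cortactin gene Cttn had 9800, 6400, 27400 and 32200 bp, and the GTPase gene Rhob had 2000, 2400, 6600 and 6600 bp.

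Of the remaining lists, the stricter criterion of 4 pairs left Foxo3 for organelle removal and autophagy, with 3000, 2800, 8000 and 7200 bp, and the phosphofructokinase gene Pfkl for glycolysis, with 3200, 3200, 9000 and 10600 bp. For the cell cycle it left Mcm2, a subunit of the replicative helicase, in a region with Tpra1. This region had 17800 and 12800 bp in epithelium and 49000 and 42400 bp in fibers. Among ribosomal proteins, 10 of the 17 genes passed the stricter criterion, among them Rps3 with a ratio of 2.46, Rpl8 with 2.78, Rpl27 with 3.12 and Rps15a with 3.56. The genes of H3.3 and its chaperones with a start in the 2010 regions stayed below the ratio, H3f3a at 1.31, Cabin1 at 1.53 and Daxx at 1.51.

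The 10 regions with the most gained bp held the starts of Col4a1 and Col4a2, Dpf1 and Sipa1l3, Btbd16, Sox1, Adamts18, Bola3, Nap1l4 and Cars, Clk3 and Arid3b, Tox2, and Fbxl14 and Wnt5b. The gain did not always lie over the named gene. Btbd16 itself was covered over 18.6% and 15.8% in epithelium and 15.7% and 6.95% in fibers, and its region lay mostly upstream. Bola3 was covered over 29.6% and 23.7% in epithelium and 94.0% and 100% in fibers, and its region reached far past the gene end. Col4a1 and Col4a2, which encode the type IV collagen chains of basement membranes such as the lens capsule and start side by side on opposite strands, had the longest region (chr8:11185401-11466800). Islands covered 131400 and 135000 bp of it in epithelium, in 24 and 36 islands, and 270200 and 269000 bp in fibers, in 5 and 10 islands. The ratio of 2.02 was thus near the limit although the gain, 136400 bp, was the highest. Tox2, an HMG box protein gene, had 6600, 13600, 77400 and 78600 bp, and Adamts18, a secreted metalloprotease gene, had 11800, 24200, 96200 and 96600 bp. Fbxl14 and the Wnt ligand gene Wnt5b shared 6000, 11400, 77600 and 75200 bp.

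The 5 regions with the highest ratios were narrow in epithelium. Vps26c, a subunit of the retriever complex of endosomal sorting, led with 1600 and 1400 bp in epithelium and 17200 and 21600 bp in fibers, a ratio of 12.9. It was followed by Tdrd7, by Adsl, an enzyme of purine synthesis (2400, 1400, 20000 and 21600 bp), by the proteasome ATPase gene Psmc1 (2800, 1600, 23400 and 23600 bp) and by Tmem40 (3400, 6400, 47200 and 50800 bp). Each of these was covered by 1 or 2 islands per epithelium library. Division by the library totals lowers all ratios by a similar factor, so that these 5 necessarily stood first among the 18 regions that still reached 2. The others of the 18 included Etv5, Tmod1, Rac1, Tox2 and, named after their values were seen, the laminin α1 gene Lama1 (4200, 2200, 27800 and 28200 bp) and the collagen prolyl hydroxylase gene P4ha1 (8200, 8000, 64200 and 66800 bp).

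Read density differed little between the compartments in the widened regions. Density, the reads in the islands of a region per kb of island, had medians over the 905 regions of 29.1 and 29.4 reads per kb in epithelium and 29.9 and 30.1 reads per kb in fibers. The median log2 ratio of fiber to epithelium density was 0.0250, with an SD of 0.00987 over the 4 pairs of libraries, which share samples. In the regions below the ratio it was 0.0783 with an SD of 0.0111. Both fiber replicates were denser than both epithelium replicates in 279 widened regions (30.8%), beside 36.2% of all gene-start regions, and less dense in 147 (16.2%), beside 13.4%. These densities are raw, depend on the depth of each library, and come from the same contrast as the rule. They count reads only where an island was called, and a call itself requires more reads than the background. Whole libraries were similarly close, with a median over all islands of 28.3 (epithelium 1), 28.1 (epithelium 2), 27.4 (fiber 1) and 27.5 (fiber 2). Over whole libraries fibers lay slightly below epithelium, the reverse of the widened regions. A difference of small size is thus not particular to the widened regions, and the part of island calling in it was not tested.

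Single genes departed from this pattern in each direction. The highest density ratio, 1.76, was that of the region of Cryba4, Crybb1 and Tpst2, named after its values were seen, with 28.1 and 27.4 reads per kb in epithelium and 50.5 and 47.0 in fibers. Bfsp2 had 25.6, 24.7, 36.2 and 36.9 reads per kb, Sptan1 28.6, 28.0, 39.5 and 38.8, and Prox1 a density ratio of 1.36. At these 4 regions both fiber libraries were denser than both epithelium libraries. Vps26c, with the highest width ratio, had 37.5 and 35.0 reads per kb in epithelium and 31.9 and 29.3 in fibers, and Aqp5 had 42.5, 34.5, 34.0 and 30.5, so that fibers were less dense there. The epithelium islands of both regions were 1400 to 2000 bp long. In every library, islands of 1 to 2 kb had a higher median density than all islands. Their medians were 36.5 and 32.2 reads per kb in epithelium and 38.5 and 33.9 in fibers. The part of island length in the density ratios of Vps26c and Aqp5 was not tested.

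**Figure D3:**
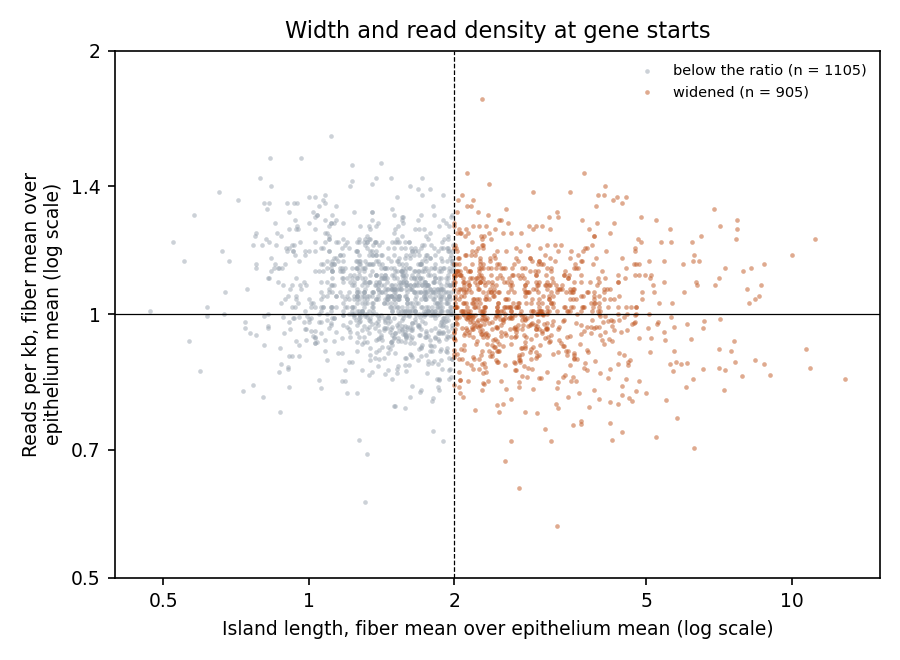
Width ratio against density ratio, both as fiber mean over epithelium mean on log scales, for the 905 widened regions (orange) and the 1105 regions below the ratio (grey). The dashed line is the width ratio of 2 and the solid line equal density, and the points scatter around equal density at every width.

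The selection required a gene start in the region but did not use the side of the start on which bp were gained. The side was described in the 593 widened regions with 1 gene start, where gained bp were those in islands of both fiber libraries and of neither epithelium library, 4880 kb in all. Of these, 58.8% lay within the gene, 27.6% upstream of it and 13.6% beyond its end. Downstream of the start were 72.4%, against 66.3% in the regions below the ratio. More gained bp lay downstream than upstream in 407 of 584 regions (69.7%), and in 315 of 527 regions (59.8%) below the ratio. The islands as a whole had the same orientation in every library, with 69.4% and 70.6% of their bp downstream in epithelium and 70.9% and 71.0% in fibers. The downstream share of gained bp was 66.0% and 65.3% when fiber replicate 1 or 2 was left out. It was 87.2% when any annotated transcript start of a protein-coding gene admitted a region. The side was then still taken from the outer start of the gene, so that regions inside a gene counted as downstream by construction.

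Relative to the epithelium islands of the 593 regions with 1 start, 44.6% of the gained bp filled gaps between them, 24.7% lay upstream of all of them and 30.7% downstream. In the regions with 1 start below the ratio, the shares were 51.3%, 23.8% and 24.9%. A fiber island spanned 2 or more epithelium islands in at least 1 pair of libraries in 470 of the 905 regions (51.9%), and in all 4 pairs in 125 (13.8%). In regions below the ratio these shares were 54.8% and 21.4%. In each pair of libraries, between 89.9% and 93.5% of the epithelium island bp of the widened regions lay inside fiber islands. Below the ratio this was 83.1% to 87.5%, and the choice of wide fiber islands favours a higher share in the widened regions.

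The gene start itself was often outside the epithelium islands. A start base lay in an island in 558 and 541 of the 905 regions (61.7% and 59.8%) in epithelium 1 and 2, and in 866 and 857 (95.7% and 94.7%) in fiber 1 and 2. In regions below the ratio the shares were 78.7% and 75.8% in epithelium and 94.2% and 92.7% in fibers. A start base covered in both fiber libraries and in no epithelium library was present in 261 widened regions (28.8%) and in 119 regions (10.8%) below the ratio. Crygn, Sox1, Etv5, Prx and Rac1 were among the 261. These shares are in large part set by the selection, since a region without a start in an epithelium island could enter only through its fiber islands, and wide fiber islands were selected. Conversely, the start base was covered in all 4 libraries in 368 regions (40.7%), such as those of Sptan1, Vim, Cryba1, Bfsp2 and Rhob.

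Around a start that lay in islands of all 4 libraries, in 210 widened regions with 1 start, the island reached a median of 1338 and 1214 bp upstream and 1864 and 1617 bp downstream in epithelium. In fibers it reached 2988 and 2656 bp upstream and 6037 and 5336 bp downstream. At the start, 55.3% and 51.1% of the 593 regions had an island in epithelium and 93.8% and 92.6% in fibers. At 5 kb into the gene the shares were 21.6% and 19.2% in epithelium and 73.7% and 66.8% in fibers, and at 5 kb upstream 9.61% and 8.09% against 41.0% and 38.8%. At 20 kb downstream, fibers still had 53.0% and 50.3%. In regions below the ratio, fibers had 52.8% and 47.0% at 5 kb into the gene.

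**Figure D4:**
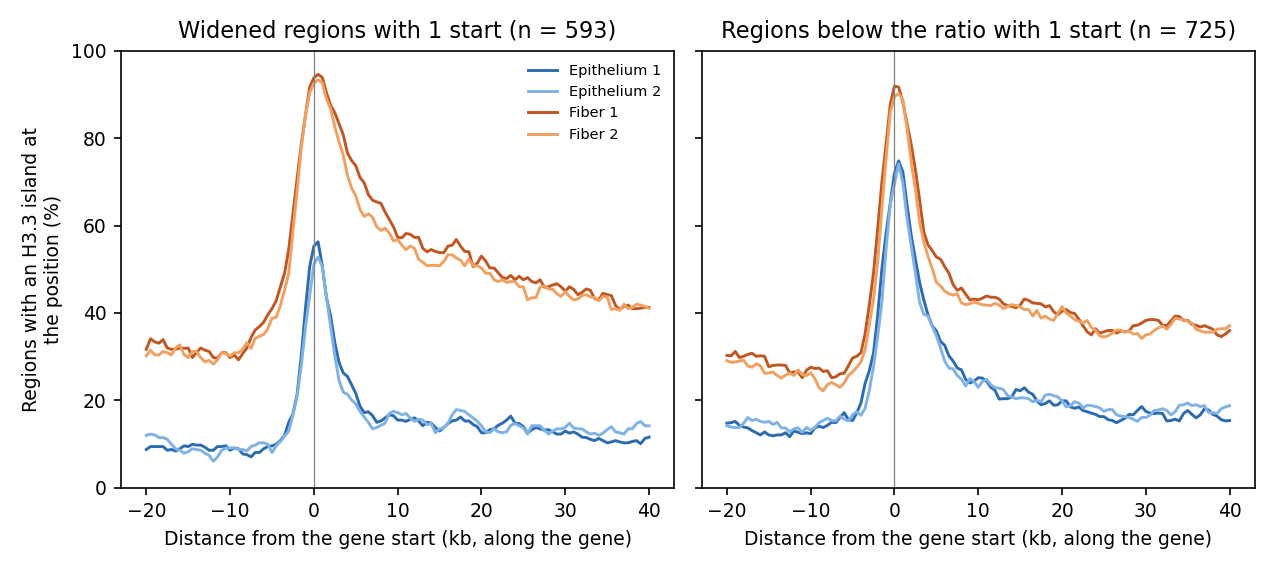
Share of regions (%) with an H3.3 island at each position from 20 kb upstream to 40 kb downstream of the gene start, along the gene, for the 593 widened regions with 1 start and the 725 such regions below the ratio. In the widened regions the fiber curves fall slowly on the downstream side, from 93.8% and 92.6% at the start to 57.3% and 56.8% at 10 kb.

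Longer genes were more often in widened regions. Among regions with 1 start, 35.4% of those with a gene under 5 kb were widened, 44.9% at 10 to 20 kb, 52.0% at 50 to 100 kb and 56.5% above 100 kb. The median ratio rose alongside from 1.74 to 2.14, and the median gained length of the widened regions stayed between 7700 and 11400 bp. The share of the gene in any island of a library, in the start's region or beyond it, fell with length. Genes of widened regions under 5 kb had a median of 51.2% and 60.9% of their length in islands in epithelium and 100% in both fiber libraries. Those above 100 kb had 8.77% and 10.5% in epithelium and 58.0% and 61.2% in fibers. Over all lengths the medians were 18.2% and 17.9% in epithelium and 77.7% and 72.7% in fibers, and in regions below the ratio 35.8%, 34.9%, 62.7% and 56.2%. Genes covered from start to end in both fiber libraries numbered 70 of the 593 (11.8%), of which 47 were under 5 kb, against 9 (1.52%) in both epithelium libraries. Such genes were no more frequent than in the regions below the ratio, where they numbered 96 of 725 (13.2%) in fibers and 26 (3.59%) in epithelium. The longest of the 70, named after their values were seen, were Jag1, a Notch ligand gene of 35189 bp (33.7% and 29.1% in epithelium), and Bcar1, an adaptor protein gene of focal adhesions of 33336 bp (33.0% and 40.2% in epithelium).

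**Figure D5:**
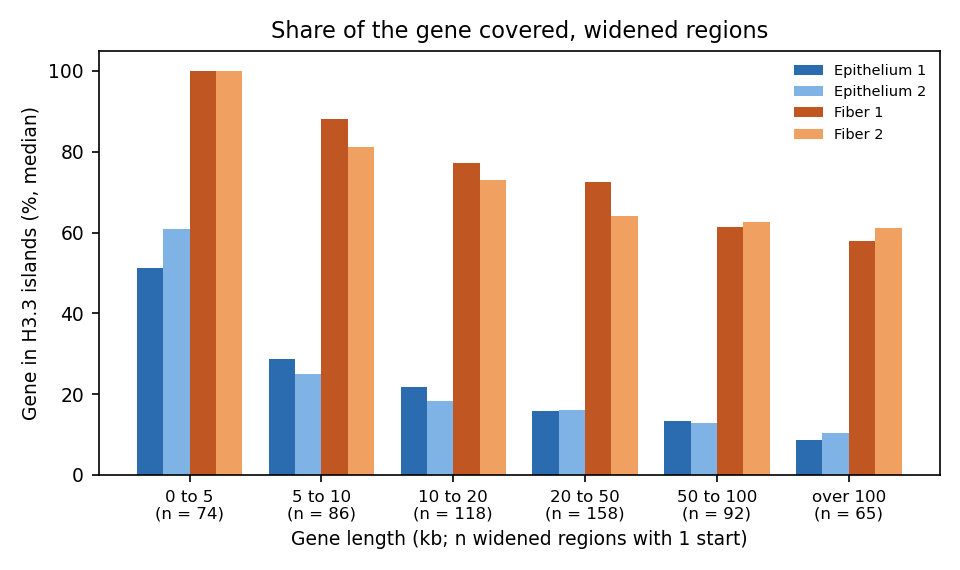
Median share of the gene in any H3.3 island (%) of each library, for widened regions with 1 start grouped by gene length (kb). In genes under 5 kb the fiber medians are 100%, and above 100 kb they are 58.0% and 61.2%, with epithelium below fibers in every group.

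The gained bp were less CG-rich and more intronic than the epithelium islands they joined. The epithelium islands of the 905 regions had a GC content of 51.5% and 21.7 CG dinucleotides per kb, and the gained bp 48.5% and 15.5 per kb. Exons of protein-coding genes made up 22.2% of the epithelium islands and 16.3% of the gained bp, and introns 54.9% and 62.7%. The regions below the ratio differed in the same direction. Their epithelium islands had a GC content of 52.9% and 23.0 CG per kb, and their gained bp 50.8% and 17.7 per kb. Exons made up 25.3% and 18.5% there, and introns 49.1% and 54.3%.

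The promoters of the widened regions resembled those of the other gene-start regions. Windows from 250 bp before to 50 bp after each GENCODE start were read from GRCm38 for all 1378 genes of the widened regions, the 1751 genes of the regions below the ratio and all 20807 protein-coding genes of chromosomes 1 to 19. The median GC content was 60.3%, 60.7% and 55.3% in this order, and a ratio of observed to expected CG of at least 0.6 was found in 67.4%, 62.6% and 45.5%. The GC box (GGGCGG, either strand) was present in 63.5%, 61.1% and 43.7%, and the TATA box (TATAAA) in 6.82%, 7.37% and 12.7%. The ETS site (CCGGAA) was present in 363 of 1378, 386 of 1751 and 3720 of 20807 windows. The CCAAT box (CCAAT) was present in 37.4%, 38.4% and 38.6%, and the MAF core (TGCTGA) in 13.7%, 15.4% and 17.4%. The AP-1 site (TGANTCA), the TEAD site (GGAATG) and the heat shock element (GAANNTTC) were present in 4.43%, 12.3% and 5.44% of the widened regions' windows and in 6.88%, 13.5% and 7.58% of all windows. In the windows of the regions below the ratio, they were present in 4.63%, 12.1% and 4.97%. Within the widened regions, the share with an ETS site was 31.5% of 447 starts covered in all 4 libraries and 22.3% of 323 starts covered in fibers alone. These counts are matches of letters and not sites of binding.

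The ratio was also described pair by pair. All 4 libraries entered the merging and the requirement of an island, so that no library was independent of the 2010 regions. Choosing the gene-start regions by fiber 1 over epithelium 1 gave 932 regions, of which 606 (65.0%) also reached a ratio of 2 in fiber 2 over epithelium 2, against 33.7% of the 1078 regions not chosen. In the reverse direction, 606 of 969 (62.5%) reached it, against 31.3% of the rest. The median ratio of the chosen regions was 2.51 and 2.43 in the other pair of libraries, where all gene-start regions had 1.92 and 1.88. With the epithelium libraries exchanged, the shares were 55.3% and 69.6%, beside 42.2% and 53.0% of all gene-start regions. For the pairs that were not exchanged, the shares over all gene-start regions were 48.2% and 46.4%. All of these pairs share the genome-wide difference between the compartments.

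Island lists differed between replicate numbers as well. Among islands of 1 to 2 kb, the lowest density was 28.5 reads per kb in epithelium 1 and 28.0 in fiber 1, and 23.5 in epithelium 2 and 25.5 in fiber 2, and the part of this difference in the widths was not tested. Markers were counted as genes with an island, and the part of other cells in the widths was not tested. Of 12 fiber markers, 5 and 7 had an island in epithelium and 11 in each fiber library, with Lgsn at 0 in all 4, and of 10 epithelium markers 7 had one in each epithelium library and 8 in each fiber library. The summed island length in the fiber markers was 26.7 and 50.5 kb in epithelium and 159 and 157 kb in fibers, and in the epithelium markers it was 51.3 and 71.4 kb in epithelium and 138 and 152 kb in fibers, so that both sets were higher in fibers. Genes of corneal and surface epithelium had 0 of 5 except for 1 in fiber 2, with Krt5, Krt12, Krt14 and Trp63 at 0 in all libraries. Of 6 retinal and neuronal, 4 pigment cell, 5 endothelial and 7 blood and macrophage genes, between 0 and 3 per set had an island in any library, and Crx, Rcvrn, Tyr, Mlana, Kdr, Tie1, Tek and Ptprc had none. The summed island length in the genes of each of these 5 sets was 0 to 9.66 kb in epithelium and 0 to 28.4 kb in fibers, and 0 genes of these sets started in a widened region. The 10 epithelium markers also had 0 in widened regions. A region needed an island in all 4 libraries, so that this count cannot show the part of other cells. When the same number of islands, 10389, was taken from every library by read density, 347 of 980 gene-start regions (35.4%) were widened, and when it was taken by reads, 634 of 1336 (47.5%). Without epithelium replicate 1, which relaxed the condition to 3 libraries, 1572 of 3106 regions (50.6%) were widened.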

How the data were processed

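The data were H3.3 ChIP-seq libraries, 2 of lens epithelium and 2 of lens fibers. The authors mapped single-end 75-nt reads with BWA to mm10 and ran SICER2 on every library separately to find islands (window 200 bp, gap 600 bp, false discovery rate 0.01). The deposited lists hold the position of each island and its count of ChIP reads, which was not normalized. Duplicate removal, and whether the input was used in calling, are not given in the sources used here. A larger number of reads can lengthen islands, and the sequencing depth is unknown, so that no interval was computed. Reads in islands numbered 1331369 and 1430373 in epithelium and 5041885 and 5359085 in fibers.

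Islands were merged, and the merged regions were identical to the 38396 of bedtools 2.31.1. Gene starts were those of 21951 protein-coding genes of GENCODE M21. Calculations used Python 3.11.15, numpy 2.4.6, scipy 1.17.1 and matplotlib 3.10.9, and in simulated lists all 1000 planted regions received their ratio. Widths and densities are described without a test.

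The regions and the gene lists were chosen with earlier results of these data known. Named were the 10 regions with the most gained bp, the 5 with the highest ratio, the 3 on each side of the limit, and listed lens genes with all pair ratios at 2 or more. Other genes were named after their values were seen, and some listed genes are not reported here. Alternatives left out each library, changed the islands, merging, start, scaling and window, and set the limit at 1.5 or 3. Not analysed here were 12 libraries of bisulfite sequencing and an input pool.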

Additional observations from a re-analysis of the deposited data

How the results depend on the processing

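No paired analysis was possible because the widths selected the regions and are given without a test, and the labels tie no epithelium replicate to a fiber replicate. The number of widened regions was 905 as reported, 515 with the denser islands of each library (median density or more), 347 with 10389 islands per library by density, 18 after division by the library totals, 1424 at a limit of 1.5, 394 at a limit of 3, and 677 to 1572 when 1 library was left out. The share of gene-start regions (45.0%) was 54.9%, 35.4%, 0.896%, 70.8%, 19.6% and 34.8% to 50.6% in the same order, and 50.1% with islands within 1 kb merged. The median log2 density ratio (0.0250) was 0.0798 with 10389 islands by reads, 0.135 by density, 0.0595 after division by the totals, 0.0398 at 1.5, and 0.00377 to 0.0282 without 1 library. The share of gained bp downstream (72.4%) was 77.0% and 71.4% with 10389 islands by reads and by density, 76.4% with islands merged and 78.5% after division. It was 70.9% within 10 kb of a start, 71.8% and 74.2% at limits of 1.5 and 3, and 65.3% to 72.6% without 1 library. With regions admitted by any transcript start it was 87.2%, the side still being taken from the outer start of the gene. The mean share kept in the other pair of libraries (63.8%) was 69.6% at median density, 55.2% by density, 67.6% with islands merged, 12.5% after division, 59.9% within 10 kb, and 76.4% and 46.3% at 1.5 and 3, and it could not be computed without a library. Of 95 values under the alternatives, 43 stayed close to those reported and 52 moved, and islands of at least 600 bp left every value unchanged. Close meant within 1.5-fold for the number of regions and within the SD over libraries or their pairs for the other results. A reversal was defined only for the median log2 density ratio, and 0 of its 14 values reversed. Causes were not tested, except that a lower limit admits more regions and a higher limit fewer.

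With 2 libraries per compartment and no sequencing depth, a genome-wide excess of fiber islands and a difference in depth cannot be told apart, and an absent island is an absent call.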
